A study of Mus musculus with 6 samples.

Results

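The dual-specificity MAP kinase phosphatases examined here were the products of 10 genes, Dusp1, Dusp2, Dusp3, Dusp4, Dusp5, Dusp6, Dusp7, Dusp8, Dusp10 and Dusp16, chosen by symbol from the 17217 rows of the deposited expression table. All 10 had a row. They were compared between 3 Control and 3 Knockout libraries of total RNA from cells labelled bone marrow-derived macrophages (BMDMs), that is, marrow cells grown into macrophages in culture. Control is the Cd74 wild-type genotype and Knockout the Cd74-deficient one. Cd74 encodes the invariant chain of MHC class II, which is also a surface receptor for the cytokine MIF. Per the labels' protocols, the femoral marrow came from mice aged 8 weeks, was cultured with 30 ng/mL M-CSF, and every library came from cells given 100 ng/mL lipopolysaccharide (LPS) for 24 h. No library without LPS was among them, so the values describe stimulated cells of both genotypes and not induction by LPS. The protocol text names wild-type mice for all libraries, and the genotype was taken from titles and genotype labels.

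MAP kinases (ERK, JNK and p38) carry signals from receptors such as TLR4, the LPS receptor, to transcription and mRNA stability. They are switched on by phosphorylation of a threonine and a tyrosine in the activation loop, and the dual-specificity phosphatases remove both phosphates. Several of these phosphatases are themselves products of MAP kinase-driven transcription and form a negative feedback. In macrophages Dusp1 is best known for limiting p38 and JNK activity and cytokine output after LPS.

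Of the 10 genes, 4 were lower in the knockout (Dusp8, Dusp1, Dusp10 and Dusp4), 1 was higher (Dusp6) and 5 did not pass the test (Dusp2, Dusp3, Dusp5, Dusp7 and Dusp16). The test was limma on log2(TPM + 1), fitted over the 13034 rows that averaged 1 TPM or more (TPM is a transcript level scaled for gene length and library total), with Benjamini-Hochberg adjustment and a threshold of 0.05. All 10 genes passed that filter. Over all tested rows 10.1% were called lower and 18.5% higher, 28.5% in all. The median log2 fold change of the 10 genes was -0.09, against 0.04 over all tested rows. In 5 of the 10 the Control and Knockout values did not overlap, which was also the case in 50.0% of all tested rows. The knockout lay below in 4 (19.8% of all rows) and above in 1 (30.2% of all rows).

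Each value rests on whole sequencing reads. Multiplying TPM by gene length and dividing by the worth of 1 read in that library gave whole numbers, within 0.02 read, for all 10 genes in all 6 libraries. This matters because 28 rows of the table, Cd74 among them, are not whole reads at any single length. None of the 10 genes is one of them. Recovered depth was 36445462 to 59236599 reads per library. Cd74 itself read 632, 593 and 594 TPM in the Control libraries, against 65.3, 64.6 and 63.1 TPM in the Knockout libraries, lower in every library labelled Knockout. No single gene length made all 6 Cd74 values whole reads. Control libraries are labelled batch 1 and Knockout libraries batch 2, so genotype and batch cannot be told apart in any comparison here. The labels do not say that replicates came from separate mice or cultures, and p-values may measure technical spread. Of 14 macrophage markers 8 had a mean of at least 1 TPM (such as Adgre1, Csf1r and Cd68). Of these, 3 were called higher in Knockout and 1 lower. The summed level of the list was 10600 to 11146 TPM in Control and 13943 to 15193 TPM in Knockout. Mrc1 had a mean under 1 TPM, and Mertk, Maf, C1qa, C1qb and C1qc had no row. T cell and mast cell markers had no row. B cell, erythroid and stromal markers summed to at most 1.25 TPM in any library and dendritic cell markers to at most 8.26 TPM. Of 7 neutrophil markers 5 had no row. Only S100a8 had a mean of at least 1 TPM, and S100a8 was called higher. The sum of the list was 4.55 to 6.60 TPM in Control and 16.3 to 22.6 TPM in Knockout. Its part in the results below was not tested. In bulk RNA, fewer cells of one kind and less RNA per cell cannot be told apart.

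**Figure D1:**
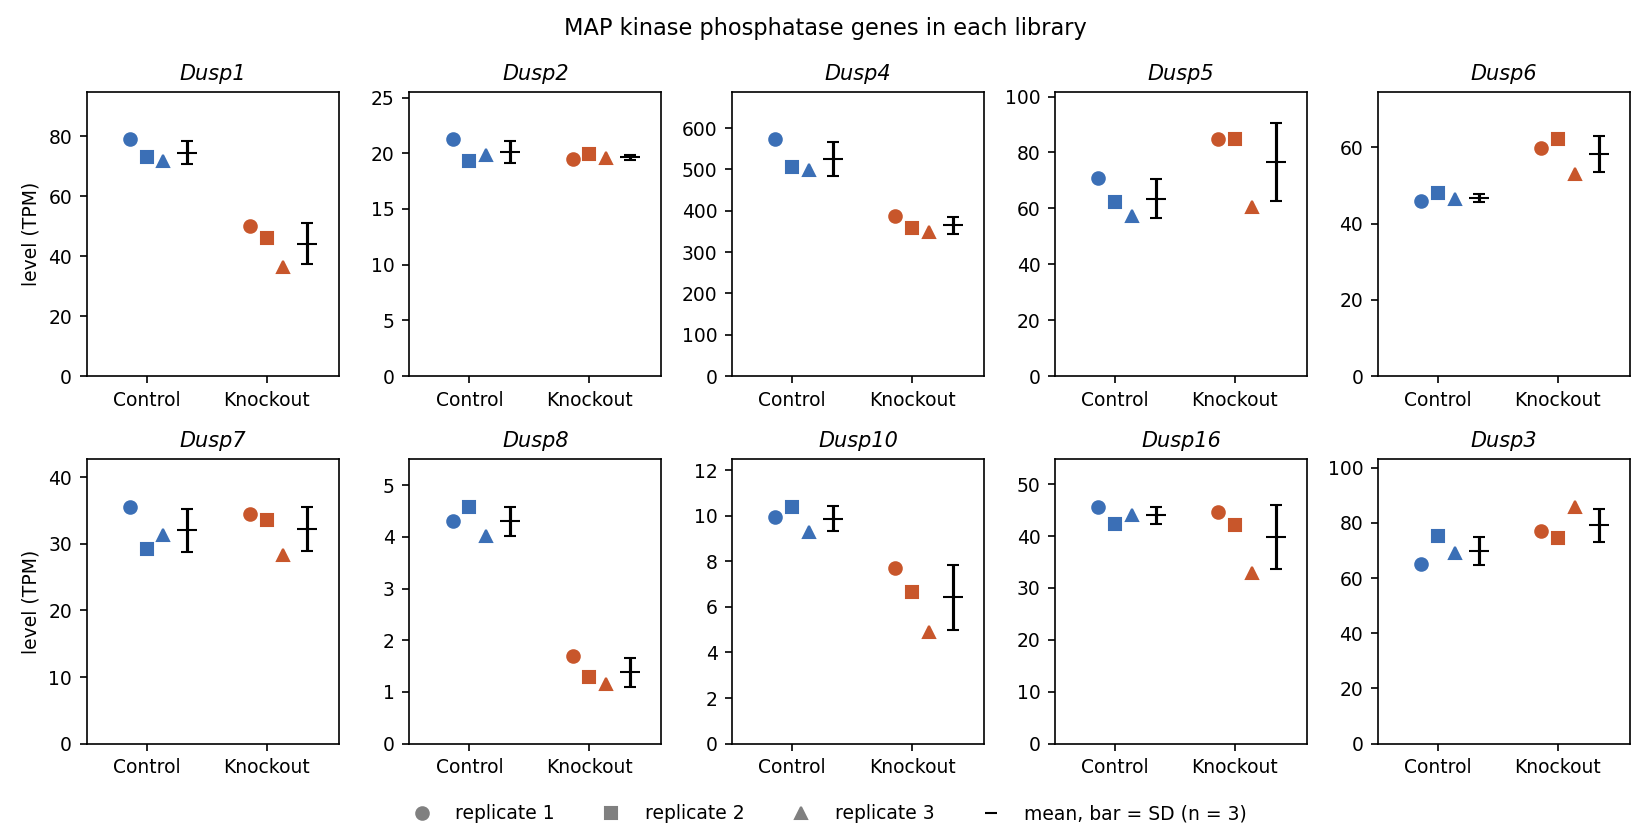
Level of each of the 10 genes in TPM (vertical axes from 0, a separate scale for each gene) in the 3 Control libraries (blue) and the 3 Knockout libraries (orange), with the marker shape for the replicate and the mean with its SD (n = 3) beside them in black. The groups stand apart for Dusp1, Dusp4, Dusp6, Dusp8 and Dusp10 and overlap for the other 5.

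The levels spanned a wide range. Dusp4 was the most abundant member in every library, and only 2.37% of tested rows had a higher mean TPM. It made up 59.0 ± 1.13% of the summed TPM of the 10 genes in Control and 50.5 ± 1.39% in Knockout (SD, n = 3 each). Dusp8 was the least abundant in every library, and 14.6% of tested rows had a lower mean. The median row stood at 20.2 TPM. In Control the order of means after Dusp4 was Dusp1, Dusp3, Dusp5, Dusp6, Dusp16, Dusp7, Dusp2, Dusp10 and Dusp8. The values of Dusp1 and Dusp3 overlapped, as did those of Dusp3 and Dusp5, so the order among these neighbours is not resolved. In Knockout Dusp1 moved from second to the fifth place, behind Dusp3, Dusp5 and Dusp6. Its lowest Control value was 71.7 TPM, above the 48.0 TPM of the highest Dusp6 value there, whereas its highest Knockout value was 49.9 TPM, below the 53.1 TPM of the lowest Dusp6 value. Knockout values overlapped between the neighbours Dusp3 and Dusp5, Dusp5 and Dusp6, Dusp1 and Dusp16, and Dusp16 and Dusp7. The other places were the same in both groups.

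**Figure D2:**
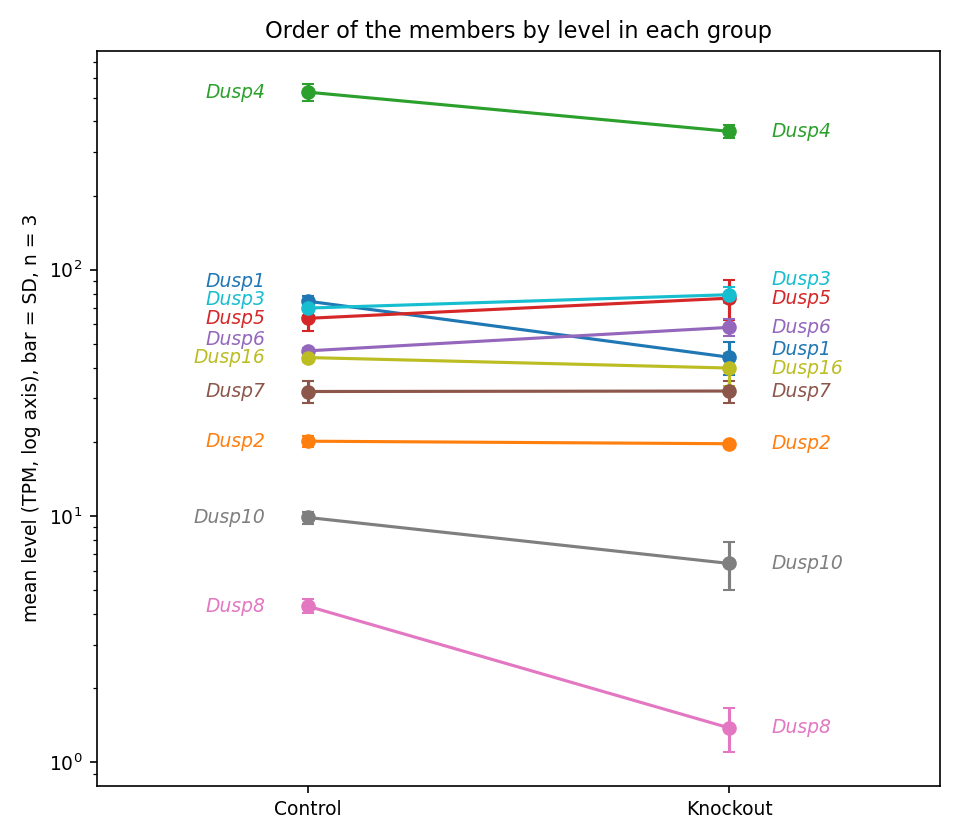
Mean level of each gene in Control (left) and Knockout (right) in TPM on a log axis, with bars for the SD (n = 3), joined by a line per gene. Dusp1 starts at 74.5 TPM above Dusp3, Dusp5 and Dusp6 and ends at 44.1 TPM below them, while Dusp4 stays on top and Dusp10 and Dusp8 at the bottom.

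The sequence before the start of the genes that passed the test was examined next, to show which short motifs the called members hold there. The set of RefSeq promoters used here (GRCm38.p6) held a start for 9 of the 10 genes and no entry for Dusp4. The 250 bases before the start are printed 5′ to 3′ on the strand of the gene for the called members, with matches to the searched motifs in capitals. Matches were sought on both strands to the full cAMP response element TGACGTCA, to its half-site TGACG (which lies inside the full site), to the AP-1 site TGANTCA, to TATAAA, to the kB consensus and to the CArG box bound by serum response factor.
Dusp1, GRCm38.p6 chr17:26508473-26508722, minus strand: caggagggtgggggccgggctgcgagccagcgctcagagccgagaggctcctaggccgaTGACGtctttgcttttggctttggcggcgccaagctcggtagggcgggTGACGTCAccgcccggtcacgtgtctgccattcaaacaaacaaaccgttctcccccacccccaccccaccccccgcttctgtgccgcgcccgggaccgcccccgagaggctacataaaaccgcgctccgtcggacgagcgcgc
Dusp8, GRCm38.p6 chr7:142095285-142095534, minus strand: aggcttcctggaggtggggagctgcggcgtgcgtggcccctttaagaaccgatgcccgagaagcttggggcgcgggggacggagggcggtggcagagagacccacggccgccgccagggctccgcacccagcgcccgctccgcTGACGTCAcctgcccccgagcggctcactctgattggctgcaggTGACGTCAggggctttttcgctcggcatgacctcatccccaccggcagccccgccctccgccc
Dusp10, GRCm38.p6 chr1:184034131-184034380, plus strand: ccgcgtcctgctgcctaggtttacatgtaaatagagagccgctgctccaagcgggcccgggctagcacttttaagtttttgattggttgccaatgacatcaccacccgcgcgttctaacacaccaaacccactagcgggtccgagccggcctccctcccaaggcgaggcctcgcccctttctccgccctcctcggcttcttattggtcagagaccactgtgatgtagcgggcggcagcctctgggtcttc
Dusp6, GRCm38.p6 chr10:99262981-99263230, plus strand: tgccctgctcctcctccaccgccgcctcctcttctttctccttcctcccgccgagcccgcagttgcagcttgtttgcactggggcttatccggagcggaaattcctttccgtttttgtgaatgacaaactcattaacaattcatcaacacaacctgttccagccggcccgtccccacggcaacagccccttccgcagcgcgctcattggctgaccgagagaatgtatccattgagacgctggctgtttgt

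Dusp1 holds the full TGACGTCA once, at bases -143 to -136 from the start, and a separate half-site at -191 to -187. Dusp8 holds the full site in 2 places, at -107 to -100 and at -63 to -56. Of 32851 RefSeq promoters of the same length, 1.55% hold the full site and 17.8% the half-site. Their medians were 52.4% G and C and 6 CG pairs, against 68.4% and 28 in Dusp1 and 71.6% and 25 in Dusp8. Both motifs contain a CG pair, and the share among promoters of like content was not computed. The printed windows of Dusp10, which fell, and Dusp6, which rose, hold no match to any of the 6 motifs. Among the members that were not called, Dusp5 has 2 adjoining CArG boxes at -82 to -73 and -72 to -63 (in 1.47% of promoters) and 1 half-site at -55 to -51, and Dusp16 has 1 half-site at -70 to -66. No match to the AP-1 site (6.75% of promoters), TATAAA (12.4%) or the kB consensus (3.90%) was found in the 9 windows. The motifs were chosen with the expression values known. A match is a stretch of letters and shows no binding, and its absence from these windows says nothing about the factor elsewhere.

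Among the inducible phosphatases of the nucleus (Dusp1, Dusp2, Dusp4 and Dusp5), Dusp4 and Dusp1 fell and the other two did not pass the test. Dusp1, which acts mainly on p38 and JNK, had 78.9, 72.9 and 71.7 TPM in Control (replicates 1, 2 and 3, the order used throughout), against 49.9, 46.0 and 36.5 TPM in Knockout. Every Knockout value lay below every Control value, and Knockout replicate 3 was the lowest. Control averaged 74.5 ± 3.85 TPM and Knockout 44.1 ± 6.87 TPM (SD, n = 3 each), a fall of 40.8% in the published transcript level, with a difference of -0.75 in log2(TPM + 1) (SE 0.11, limma adjusted p = 0.00535). Of all tested rows 1.77% had a lower log2 fold change.

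Dusp4, a nuclear phosphatase of ERK and JNK, stood at 573, 507 and 498 TPM in Control and at 388, 358 and 348 TPM in Knockout. The groups were apart, with a gap wider than the range within Knockout. Control averaged 526 ± 40.9 TPM and Knockout 364 ± 20.7 TPM (SD, n = 3 each), with a log2 fold change of -0.53 (SE 0.07, limma adjusted p = 0.00414). In TPM this was the largest change of the family, a mean difference of -161 TPM. The summed TPM of the 10 genes was 891 ± 52.3 in Control and 722 ± 48.5 in Knockout. The sum of the other 9 genes was 365 ± 12.0 and 358 ± 30.6 TPM (SD, n = 3 each), with 353 to 377 TPM in Control and 323 to 380 TPM in Knockout.

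Dusp2, a nuclear phosphatase found mostly in blood cells, stood at 21.2, 19.3 and 19.8 TPM in Control and at 19.5, 19.9 and 19.5 TPM in Knockout. The 3 Knockout values lay inside the Control range. The log2 fold change was -0.03, with a 95% interval of -0.17 to 0.10 (limma adjusted p = 0.705), the narrowest interval of the 10 genes. Dusp5, which acts on ERK alone and holds it in the nucleus, stood at 70.9, 62.2 and 57.4 TPM in Control and at 84.7, 84.7 and 60.5 TPM in Knockout. Knockout replicates 1 and 2 were above all Control values, and replicate 3 was within the Control range. The log2 fold change of Dusp5 was 0.26 (95% interval -0.08 to 0.59, limma adjusted p = 0.211). Without Knockout replicate 3 it was 0.42 and passed the threshold (limma adjusted p = 0.0168), so the call for Dusp5 turns on that library. Of the exon bases of Dusp5, 22.1% are shared with an antisense gene that has no row. Whether counting used strand was not given in the sources used here, so reads of both genes could be mixed.

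Among the cytoplasmic phosphatases selective for ERK, Dusp6 rose and Dusp7 did not pass the test. Dusp6, a feedback inhibitor that binds and dephosphorylates ERK, stood at 45.9, 48.0 and 46.6 TPM in Control and at 59.8, 62.1 and 53.1 TPM in Knockout. The 3 Control values were close together and all lay below the Knockout values. Control averaged 46.8 ± 1.07 TPM and Knockout 58.3 ± 4.66 TPM (SD, n = 3 each), with a log2 fold change of 0.31 (SE 0.07, limma adjusted p = 0.0150). Of all tested rows 16.4% had a higher log2 fold change. The call ended without Control replicate 1 (0.29, limma adjusted p = 0.0515) or Control replicate 3 (0.30, limma adjusted p = 0.0550). Dusp7, a close relative of Dusp6, stood at 35.5, 29.2 and 31.3 TPM in Control and at 34.5, 33.6 and 28.4 TPM in Knockout. The groups covered almost the same range. The log2 fold change of Dusp7 was 0.01 (95% interval -0.22 to 0.23, limma adjusted p = 0.971), and its sign changed with the scaling and with the libraries kept.

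Among the phosphatases that act on JNK and p38, Dusp8 and Dusp10 fell and Dusp16 did not pass the test. Dusp8 stood at 4.31, 4.58 and 4.02 TPM in Control and at 1.70, 1.28 and 1.16 TPM in Knockout. The lowest Control value was more than the highest Knockout value by a margin larger than the range within either group. Control averaged 4.30 ± 0.282 TPM and Knockout 1.38 ± 0.281 TPM (SD, n = 3 each), so Control was 3.12 times Knockout, the largest ratio among the 10 genes. The difference in log2(TPM + 1) was -1.16 (SE 0.14, limma adjusted p = 0.00295), and 0.483% of tested rows had a lower one. Addition of 1 TPM shrinks the change of so low a gene, and the log2 fold change was -1.59 with a pseudocount of 0.1 and -1.68 with limma-voom on the recovered reads. The values came from 238, 358 and 306 reads in Control and from 148, 98 and 95 reads in Knockout. At 95 reads the counting error alone is 10.3% (1 SD, a lower bound where reads are not independent molecules), against a spread of 20.4% between Knockout replicates.

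Dusp10 stood at 9.93, 10.4 and 9.29 TPM in Control and at 7.71, 6.66 and 4.89 TPM in Knockout. The groups did not overlap, and the Knockout values were spread more widely (22.2% of their mean, against 5.59% in Control). Control averaged 9.87 ± 0.552 TPM and Knockout 6.42 ± 1.43 TPM (SD, n = 3 each), with a log2 fold change of -0.57 (SE 0.15, limma adjusted p = 0.0269). This call ended without Control replicate 1 (-0.56, limma adjusted p = 0.0790), Control replicate 2 (-0.53, 0.0822), Control replicate 3 (-0.61, 0.0638) or Knockout replicate 2 (-0.60, 0.0564). Dusp16, which acts on JNK and p38 and shuttles between nucleus and cytoplasm, stood at 45.6, 42.4 and 44.0 TPM in Control and at 44.6, 42.1 and 32.9 TPM in Knockout. Knockout replicate 3 was the lowest of the 6, replicate 2 lay just under the Control range, and replicate 1 lay within it. The log2 fold change of Dusp16 was -0.15 (95% interval -0.40 to 0.11, limma adjusted p = 0.334), and it was -0.02 without Knockout replicate 3 (limma adjusted p = 0.817).

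Dusp3 differs from the other 9 in that it lacks the domain by which they bind MAP kinases, and is classed as atypical. It stood at 65.0, 75.3 and 69.2 TPM in Control and at 77.1, 74.5 and 85.8 TPM in Knockout. Knockout replicates 1 and 3 were above all Control values and replicate 2 was just below the highest of them. Control averaged 69.8 ± 5.20 TPM and Knockout 79.2 ± 5.93 TPM (SD, n = 3 each), and the log2 fold change was 0.18 (95% interval 0.00 to 0.36, unadjusted p = 0.0490, limma adjusted p = 0.116). Of its exon bases, 12.9% are shared with an antisense gene that has no row.

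**Figure D3:**
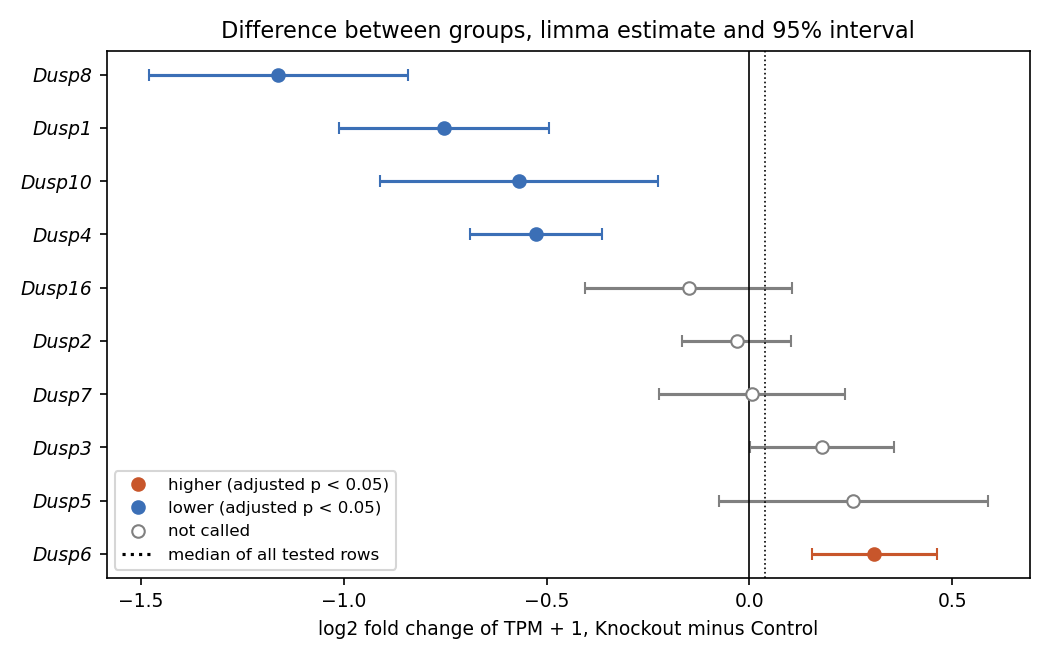
Difference between the groups for each gene on the log2(TPM + 1) scale (horizontal axis, Knockout minus Control), as the limma estimate with its 95% interval, filled where the adjusted p was under 0.05. The estimates run from -1.16 for Dusp8 to 0.31 for Dusp6, and the dotted line at 0.04 is the median of all tested rows.

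The Knockout libraries differed among themselves in a way shared by most of the genes. Knockout replicate 3 was the lowest of its group for 8 of the 10, all but Dusp2 and Dusp3, against 44.1% of all tested rows. Knockout replicate 1 was the highest of its group for 7 of the 10, against 35.8% of all rows. Relative to the Control mean on the log2(TPM + 1) scale, Knockout replicate 3 stood at -1.01 for Dusp1, where replicates 1 and 2 stood at -0.57 and -0.68. For Dusp10 the departures of Knockout replicates 1 to 3 were -0.32, -0.50 and -0.88. For Dusp3 replicate 3 was instead the highest, at 0.30. The departures of Dusp2 were between -0.04 and -0.01 in all 3 Knockout libraries. In Control, replicate 1 was the highest for 6 of the 10 genes and replicate 3 for 0, against 33.7% and 26.4% of all tested rows. Without Knockout replicate 3, 4 genes were called lower (Dusp1, Dusp4, Dusp8 and Dusp10), and 2 were called higher (Dusp5 and Dusp6). In that fit 1156 of 13059 tested rows were called lower and 2094 higher.

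**Figure D4:**
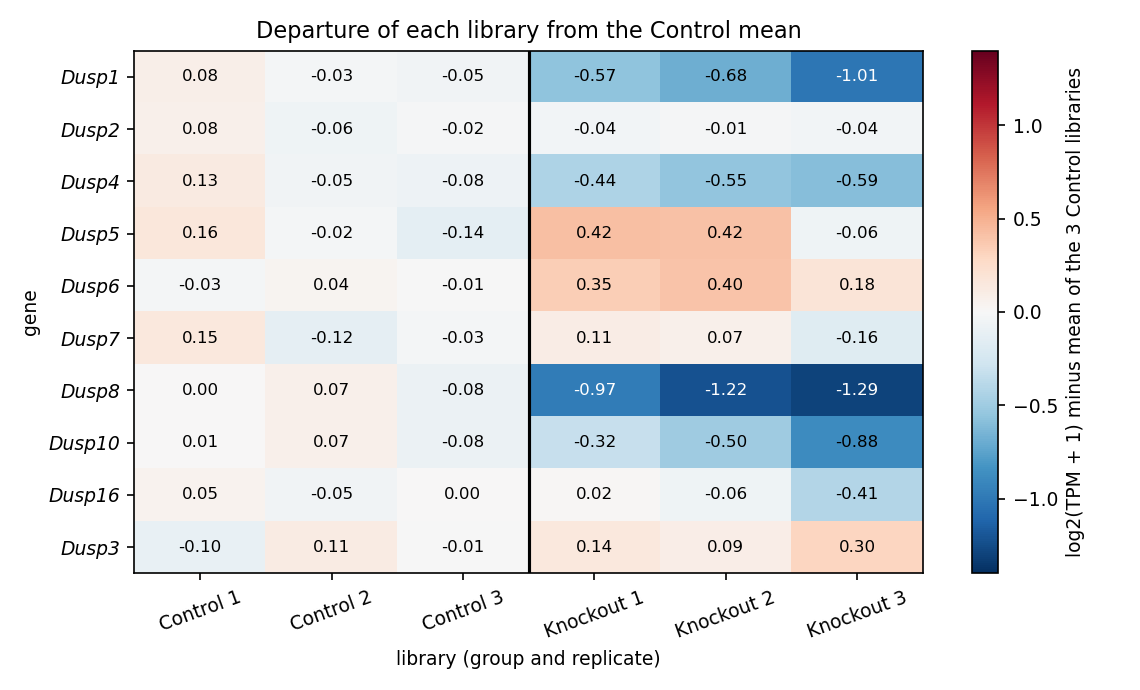
Departure of each library (columns) from the mean of the 3 Control libraries for each gene (rows), as a difference of log2(TPM + 1), blue for lower and red for higher, with the value printed in each cell. Dusp1, Dusp4, Dusp8 and Dusp10 are blue in all 3 Knockout libraries, most deeply in replicate 3, and Dusp6 is red in all 3.

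The other genes of the pathways were read from 9 lists. Of 9 tested MAP kinases, the substrates of these phosphatases, 1 fell and 8 did not pass the test (median log2 fold change -0.01), while 3 were called lower with median-of-ratios or upper-quartile scaling. The gene that fell was Mapk7, for ERK5 (26.5 ± 1.73 to 21.9 ± 1.13 TPM). Mapk3, Mapk8 and Mapk14, whose products these phosphatases act on, were not called, but Mapk3 was close (log2 fold change -0.37, limma adjusted p = 0.0565). Its groups did not overlap, and it was called lower with median-of-ratios scaling (-0.41, limma adjusted p = 0.0395), upper-quartile scaling (-0.42, 0.0379) and limma-voom (-0.40, 0.0249). Mapk3, for ERK1, had 189 ± 13.3 and 147 ± 23.8 TPM, Mapk8, for JNK1, 13.2 ± 0.643 and 13.3 ± 0.764 TPM, and Mapk14, for p38 alpha, 78.8 ± 3.54 and 84.2 ± 1.98 TPM in Control and Knockout (SD, n = 3 each). These 3 were named for their role and not by the naming rule. Of 7 MAPK kinases 1 rose and 6 were not called (median 0.02). It was Map2k3, which activates p38 (68.3 ± 3.61 to 108 ± 12.4 TPM, log2 fold change 0.64, limma adjusted p = 0.00415). Of 18 genes of the tier above, Raf kinases and binding partners that are not kinases included, 4 fell and 14 were not called (median 0.0011). The largest falls were in Map3k5, a stress-activated kinase also known as ASK1 (log2 fold change -0.45), and Map3k8, which links TLR4 to ERK (-0.31).

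Of 8 tested kinases activated by MAP kinases, 1 rose and 2 fell (median -0.11). Mapkapk2, the p38 substrate that controls cytokine mRNA stability, fell from 601 ± 48.9 to 493 ± 8.73 TPM (SD, n = 3 each), Rps6ka3 fell by 0.19 on the log2 scale, and Rps6ka1 was higher by 0.25, a call that ended under both scalings and without limma's trend and robust options, which left 0 genes of this list called higher under the scalings. Of 8 tested genes listed under ERK feedback, not all of them inhibitors of ERK signalling, 2 rose and 2 fell (median 0.02). Spred1 and Spred2, inhibitors of Ras-to-ERK signalling, rose by 0.46 and 0.31 on the log2 scale, from 173 ± 12.7 to 237 ± 6.17 TPM and from 41.6 ± 1.71 to 51.7 ± 1.5 TPM. Lif, a cytokine, and Phlda1 fell by 1.33 and 0.62 on the log2 scale. Of 19 tested transcription factors induced or activated by MAP kinases, 3 rose, 4 fell and 12 were not called (median -0.04). The AP-1 genes Fosl2 and Fos rose, from 29.6 ± 1.15 to 61.9 ± 4.35 TPM and from 28.2 ± 1.07 to 49.4 ± 1.24 TPM, while Atf3, a stress-induced repressor, fell from 960 ± 92.9 to 474 ± 95.7 TPM and the AP-1 gene Jund from 89.1 ± 9.49 to 56.8 ± 6.76 TPM (SD, n = 3 each).

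Among 13 tested dual-specificity phosphatases outside the 10, 1 rose and 2 fell (median -0.07). Dusp11, an RNA phosphatase, fell from 51.3 ± 2.97 to 39.5 ± 3.70 TPM and Dusp14, an atypical member like Dusp3, from 27.6 ± 2.05 to 21.6 ± 2.78 TPM, while Dusp28 rose from 4.21 ± 0.155 to 6.25 ± 1.29 TPM (SD, n = 3 each), a call that ended under both scalings, with limma-voom and with no filter. Of 8 tested phosphatases of other families that act on MAP kinases, 1 rose and 1 fell (median -0.0019), Ptpn7, a haematopoietic tyrosine phosphatase, by 0.36 and Ppm1a by -0.30 on the log2 scale. Of 6 tested scaffolds, Pea15a, which holds ERK in the cytoplasm, fell by 0.33 on the log2 scale and 5 were not called (median -0.22). Over the 9 lists, 9 genes were called higher and 17 lower, and upper-quartile scaling gave 7 and 27. Over all tested rows 18.5% were called higher and 10.1% lower (2406 and 1313 rows), and upper-quartile scaling gave 1735 and 1868 rows. With that scaling 4 of the 13 dual-specificity phosphatases outside the 10, 3 of the 8 phosphatases of other families and 3 of the 6 scaffolds were called lower. With no filter Map3k8 (limma adjusted p = 0.0534), Rps6ka3 (0.0561) and Dusp14 (0.0555) lost their calls, and Rps6ka3 (0.0699) and Dusp14 (0.0641) also lost theirs without limma's trend and robust options. Calls also ended when 1 library was left out. These were Mapk7 without Control replicate 1 or 3 or Knockout replicate 2 or 3 (limma adjusted p = 0.0523 to 0.0917), Map3k5 and Dusp11 without Control replicate 1 (0.0579 and 0.0522), Ppm1a without Control replicate 1 or 2 (0.0517 to 0.0525) and Ptpn7 without Control replicate 1 or 3 (0.0667 in both). Lif lost its call without Control replicate 1, 2 or 3 (limma adjusted p = 0.0511 to 0.0809) and Dusp14 without any of these or Knockout replicate 2 (0.0656 to 0.122). Map3k8 lost it without any Control replicate or Knockout replicate 2 or 3 (limma adjusted p = 0.0635 to 0.122), Rps6ka3 without any Control replicate or Knockout replicate 1 or 3 (0.0608 to 0.114), Rps6ka1 without Control replicate 1 or 3 or Knockout replicate 2 or 3 (0.0515 to 0.0865), and Dusp28 without any Control replicate or Knockout replicate 1 or 3 (0.0746 to 0.118).

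**Figure D5:**
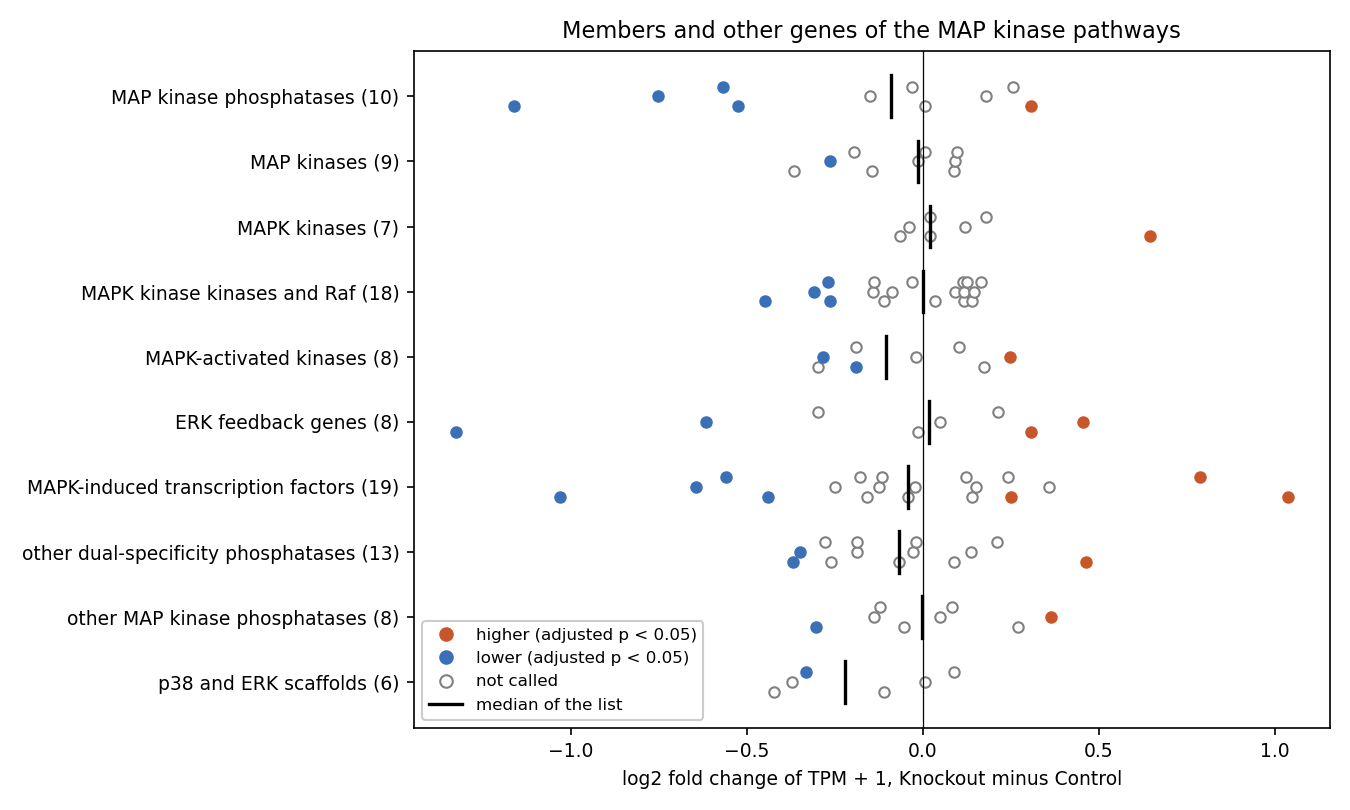
Log2 fold change on the TPM + 1 scale (horizontal axis, Knockout minus Control) of the 10 phosphatase genes (top) and of the tested genes of the 9 pathway lists (number tested in brackets), 1 point per gene, filled where the adjusted p was under 0.05, with a black bar at the median. The list medians lie between -0.22 and 0.02, and the 10 phosphatase genes have a median of -0.09.

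The rows most like the called members were sought by the root mean square difference over the 6 libraries, after subtracting from each row's log2(TPM + 1) its own mean. For Dusp4 the nearest were Tnfaip3, which encodes the NF-kB feedback inhibitor A20 (difference 0.03), Rchy1 (0.03) and Ticam1, which encodes the TLR adaptor TRIF (0.04). Tnfaip3 stood at 56.1 and 40.3 TPM (means of Control and Knockout) and Ticam1 at 73.9 and 50.4 TPM. For Dusp1 they were Icosl, a costimulatory ligand (0.02), Dgkh (0.03) and the prostacyclin receptor gene Ptgir (0.03), which stood at 208 and 124 TPM. For Dusp10 they were Oit3 (0.02), Trp53inp2 (0.05) and the early-response transcription factor gene Egr1 (0.05), at 126 and 85.9 TPM. Within a difference of 0.1 lay 229 rows around Dusp4, 98 around Dusp1 and 120 around Dusp10, so the nearest are a few of many. Around Dusp8 lay 1 such row, Il13ra2, the decoy receptor for IL-13 (0.08). The next were Ldha and Pfkp (0.11 each), whose rows are not whole reads at any single length.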

How the data were processed

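RNA of 6 libraries, 3 Control and 3 Knockout, was analysed from 1 table of TPM values deposited by the authors, with 1 column per library (columns without a sample: 0). The header gives no unit, and TPM was inferred from column sums. These are 991721 to 998572. Per the submitters' processing notes GRCm39 and DESeq2 were involved, in roles not stated there, and the aligner, counter and annotation are not given in the sources used here.

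Reads were recovered as TPM times union exon length (GENCODE M21, lengths alone) over a step found per library. At a tolerance of 0.02 read, 16503 of 17217 rows were whole in all 6 libraries, 686 more were whole at another length (tolerance 0.003 read), and 28 at none. One read in 1 kb was worth 0.0558 to 0.0883 TPM. The 95% intervals of fold changes are limma's and rest on the spread between libraries.

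Limma 3.58.1 in R 4.3.3 (trend and robust) was run on log2(TPM + 1) over rows averaging 1 TPM or more, two-sided, with Benjamini-Hochberg adjustment and a threshold of 0.05. Fold changes on this scale understate the change of low genes. The fit was tested on simulated data. Alternatives were other pseudocounts, filters and scalings, a replicate block, no trend or robust option, leaving out rows that are not whole reads, limma-voom on recovered reads, and leaving out each library. Members, lists, motifs and rules were chosen with earlier results of these data known. Named genes were all members, up to 4 called genes a list (largest rises and falls), and the 3 rows nearest to Dusp4 and to each member called with a change of at least 0.5. Some genes are not reported here.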

Additional observations from a re-analysis of the deposited data

How the results depend on the processing

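The calls of Dusp1, Dusp4 and Dusp8 (lower) held under all 16 alternatives, and those of Dusp10 (lower) and Dusp6 (higher) under all 10 that kept the 6 libraries. The number of members called lower was 3 to 4, and called higher 0 to 2, with 1 library left out in turn. Over all rows, 1312 to 2094 were then called higher and 666 to 1222 lower, against 2406 and 1313 with all libraries, and the higher count fell past 1.5 times without Control replicate 1 (1411), Control replicate 3 (1312) or Knockout replicate 2 (1585). The lower count did so without Control replicate 1 (716), 2 (769) or 3 (666) or Knockout replicate 2 (872). The share of higher calls was 64.7%, and 51.5% with median-of-ratios scaling, 48.2% with upper-quartile scaling and 55.9% with limma-voom. Pathway genes called lower were 27 with upper-quartile scaling against 17, and over all rows 1868 against 1313. Signs turned only in members that were not called, in Dusp2 with a library left out (-0.060 to 0.0062, the latter without Control replicate 1) and in Dusp7 with median-of-ratios scaling (-0.033), upper-quartile scaling (-0.049), limma-voom (-0.011) and with a library left out (-0.056 to 0.091, with -0.0079 without Control replicate 3, -0.046 without Knockout replicate 1 and -0.028 without Knockout replicate 2). The cause was not tested. Deviations of same-numbered Control and Knockout libraries from their group means were weakly correlated (0.13, -0.077 and 0.031 for numbers 1 to 3). Pairs of unlike number ranged from -0.168 to 0.168. This check cannot show whether same-numbered libraries shared a mouse or a culture. With a replicate block 2331 rows were called higher and 1380 lower, and 1 member was higher and 4 lower. Of the other genes named, Dusp28 (limma adjusted p = 0.0568) and Map3k8 (0.0620) lost their calls with that block and Mapk3 (0.0191) gained one. At a tolerance of 0.05 read all 10 members were again whole. Depth limits Dusp8 most, with 95 to 358 reads per library.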

Other observations

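Of the dual-specificity phosphatases listed outside the 10, 4 had a row but were too low for the main test. Values are given for 3 of these, chosen after they were seen. The other, Styxl1, averaged 0.155 TPM in Control and 0.103 TPM in Knockout. Dusp9, a MAP kinase phosphatase known mainly from placenta, had 0.714, 0.458 and 0.610 TPM in Control, against 0.369, 0.609 and 0.524 TPM in Knockout, in replicate order. Its groups overlapped. Dusp13 stood at 0.965, 0.590 and 0.908 TPM in Control and at 0.407, 0.418 and 0.455 TPM in Knockout, with all Knockout values below the Control values. Dusp27 stood at 0.196, 0.539 and 0.474 TPM in Control and at 1.03, 1.29 and 1.06 TPM in Knockout, with all Knockout values above the Control values. These rows were left out of the main fit. A filter of at least 3 libraries at 1 TPM lets in Dusp27 among them. With that filter 2 of the listed phosphatases outside the 10 were called higher, against 1 in the main fit.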
